A study of Mus musculus with 21 samples.

Results

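The 44 collagen genes described here were all protein-coding genes of the deposited table whose mouse symbol has the form Col, number, a, number. They made up 44 of 55487 gene identifiers and were chosen by name, with no measured value in the rule. A collagen is a secreted protein of 3 chains wound into a helix, and each gene encodes 1 chain. Fibrillar collagens I, III and V build the fibres of connective tissue, collagen IV forms the network of basement membranes, collagen VI makes beaded filaments around cells, and fibril-associated collagens sit on the fibres. In liver and its tumours, activated stellate cells and fibroblasts are known as the main makers of fibrillar collagen.

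The libraries came from hepatocellular carcinomas grown from Hepa1-6 cells, a mouse hepatoma line, in C57BL/6 mice, and messenger RNA was sequenced from frozen tumour tissue. The study asked what B cells contribute to the response to anti-PD1 plus anti-CTLA4, antibodies against 2 inhibitory receptors of T cells. Its 4 groups were WT with isotype antibody (5 libraries), WT with the antibody combination (5), B-cell depletion with isotype (6) and B-cell depletion with the combination (5), and Hepa1-6 tumour and C57BL/6 host were common to all. The labels do not state how B cells were depleted, the age or sex of the mice, dose or time, nor do they tie libraries to single mice. The p-values therefore measure the spread between these libraries, which may be partly technical.

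Total counts per library ran from 9523017 to 19166818. Levels are given as CPM, counts scaled to the total of the library, and 1 CPM was 9.52 counts in the shallowest library. The summed level of the B-cell genes Cd79a and Ms4a1 was 0.588 to 1.66 CPM in WT isotype libraries, 1.82 to 7.77 CPM in WT combination libraries and 0 to 0.641 CPM in B-depleted isotype libraries. In the B-depleted combination group it was 0 in 3 libraries, 0.308 CPM in replicate 2 and 2.0 CPM in replicate 5, above every WT isotype library, so by these 2 genes the library labelled B-depleted combination replicate 5 went against its label. Its level of the immunoglobulin gene Igkc did not stand apart: 8.57 CPM was the median of its group (0.298 to 15.4 CPM), inside the WT isotype range (4.23 to 261 CPM) and below every WT combination library (27.9 to 504 CPM). That library also held the highest level in its group of 24 of the 37 tested collagens. Where the edgeR fit of all libraries gives a printed fold change of a collagen between groups that involve it, the value without it is given too. For several collagens in the B-depleted comparison only levels are given. Igkc reached 77.5 and 14.5 CPM in B-depleted isotype replicates 3 and 5, against 0.834 to 1.67 CPM in the other 4 libraries of that group, and 15.4 CPM in B-depleted combination replicate 2.

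To show what lies before the start of genes at the extremes of the results below, the 100 bases upstream of Col3a1, Col6a5 and Col10a1 are printed from RefSeq (build GRCm38.p6). Col3a1 was among the most abundant collagens that rose under the combination in WT tumours, Col6a5 was among those with the largest rise and Col10a1 had the largest fall. The stretches are chr1:45311438-45311537 on the plus strand, chr9:105960644-105960743 on the minus strand and chr10:34389881-34389980 on the plus strand, each just outside the first exon. Capitals mark any of 3 promoter motifs searched on both strands, the TATA box TATAAA, the CAAT box CCAAT and the GC box GGGCGG, none of which contains another.
Col3a1: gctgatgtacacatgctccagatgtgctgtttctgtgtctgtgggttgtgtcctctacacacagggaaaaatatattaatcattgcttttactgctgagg
Col6a5: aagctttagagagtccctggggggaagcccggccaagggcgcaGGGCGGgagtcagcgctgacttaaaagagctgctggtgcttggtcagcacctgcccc
Col10a1: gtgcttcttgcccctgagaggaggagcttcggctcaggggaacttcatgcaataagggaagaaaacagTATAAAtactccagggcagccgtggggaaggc

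The Col10a1 stretch held TATAAA beginning 32 bases before the start, the Col6a5 stretch held GGGCGG beginning 57 bases before it, and the Col3a1 stretch held none of the 3, though TATAAA was found elsewhere in its longer window. Of 38 windows of 300 bases (250 before to 50 after the start) found for 35 of the members, 13.2% held TATAAA, 34.2% CCAAT and 60.5% GGGCGG. Over all 32851 such windows the shares were 13.6%, 37.4% and 35.7%. These matches describe the letters only.

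A pair of members shares its start. Col4a1 and Col4a2, which encode the chains of the common collagen IV helix, lie head to head on chromosome 8, and their annotated starts overlap by 22 bases at chr8:11312805-11312826 (plus strand shown, GGGCGG in capitals).
Col4a1 and Col4a2: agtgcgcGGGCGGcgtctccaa

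Reads in that overlap could not be assigned to 1 of the 2 genes without strand, and whether the counting used strand is not given in the sources used here. Other members lie next to each other as well. Col3a1 and Col5a2 are tail to tail on chromosome 1, 24614 bases apart, Col6a2 and Col6a1 follow each other on chromosome 10, and Col6a6, Col6a5 and Col6a4 follow each other on chromosome 9. In the WT comparison described below, the 7 genes of these 3 clusters rose, whereas neither Col4a1 nor Col4a2 was called. The remaining adjacent pairs (Col9a1 with Col19a1, Col4a4 with Col4a3, Col4a6 with Col4a5) each had 1 member too rare to test.

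The 44 members covered a wide range of levels. Per kilobase of the longest coding transcript, Col1a1 had the highest mean over the 21 libraries (544 CPM per kb), followed by Col3a1 (369) and Col1a2 (351), the chains of collagens I and III. Col8a1, a short-chain collagen of vessel walls, came next (79.3), then Col4a1 (63.7), Col6a1 (59.7), Col6a3 (47.6), Col6a2 (45.2), Col5a2 (44.6) and Col4a2 (42.3). The SD over libraries was 518 CPM per kb for Col1a1, 397 for Col3a1 and 337 for Col1a2, and 23.0 for Col8a1, larger than its gaps to Col4a1 and Col6a1. Within libraries, Col1a1 per kilobase was above Col1a2 in all 21 and above Col3a1 in 20, whereas Col3a1 was above Col1a2 in 10 of 21, so the order of those 2 is not resolved. Col8a1 was above Col4a1 in 16 of 21 libraries, and Col4a1 above Col6a1 in 14. A mean of at least 1 CPM was reached by 33 members and of at least 100 CPM by 15. The filter on low counts removed 7 members (Col2a1, Col4a3, Col4a6, Col9a2, Col17a1, Col19a1 and Col26a1), whose highest values in any library ran from 0.225 to 1.43 CPM. The other 37 were tested.

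In WT tumours the combination went with more collagen transcript of the fibrillar and collagen VI classes, while the main basement membrane chains did not pass the test. Of the 37 members tested, 15 rose, 4 fell and 18 did not pass (edgeR quasi-likelihood test, adjusted p under 0.05 over 19061 genes). Of all genes tested in the same comparison, 50.0% were called, 25.0% higher and 25.0% lower. The median log2 fold change of the tested members was 0.88, beside 0.00 over all genes tested. Collagen transcripts took a median of 0.673% of all counts in WT isotype libraries (0.398 to 0.728%) and 1.63% in WT combination libraries (0.993 to 3.19%), and these ranges did not overlap. In bulk tissue, more cells that make a transcript and more transcript per cell cannot be told apart.

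Other measures moved with these calls. The summed level of 4 Y-linked genes, Ddx3y, Eif2s3y, Kdm5d and Uty, which only cells with a Y chromosome transcribe, was 47.6 to 79.2 CPM in WT isotype libraries and 135 to 250.5 CPM in WT combination libraries, and all 4 genes rose. With that sum as a covariate, 3 members were called, all lower and none of them among the 19, and the collagen I and III chains were not called (Col1a1 -0.47, Col1a2 -0.50, Col3a1 -1.04). Neither were those of collagen VI, at 0.13 for Col6a1, 0.11 for Col6a2, 0.19 for Col6a3, 0.25 for Col6a5 and 0.0029 for Col6a6. The summed level of 10 skeletal muscle genes was 1.86 to 114 CPM against 35.5 to 261 CPM, and 1 member (Col10a1) was called without the 5 libraries above 100 CPM of those genes, a setting that left 2 WT combination libraries. The part of the Y-linked and muscle genes in the result was not tested. The shares of all genes called in those fits are not given here, so the fewer calls cannot be read as particular to collagens.

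**Figure D1:**
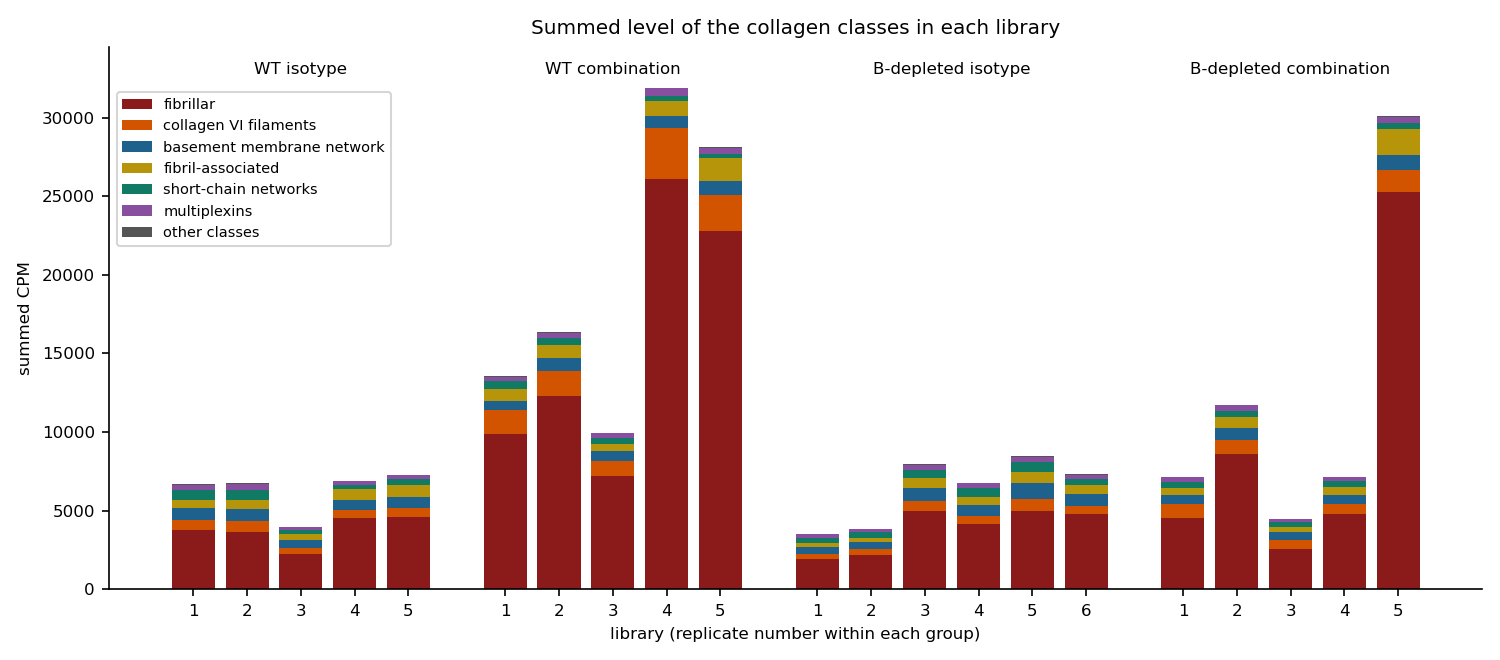
Summed CPM of the collagen classes (vertical axis) in each of the 21 libraries (bars, by group and replicate number), with colours for the classes. WT combination libraries sum to 9927 to 31878 CPM and WT isotype libraries to 3982 to 7285 CPM, and B-depleted combination replicate 5 stands at 30105 CPM against 4477 to 11704 CPM in the rest of its group.

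Among the fibrillar chains, Col1a1 (chr11:94936224-94953042, plus strand, GRCm38), which encodes the chain present in 2 copies in collagen I, stood at 1520.3, 1620.3, 812, 1511 and 1711 CPM in the 5 WT isotype libraries. In the 5 WT combination libraries it stood at 3881, 5092, 3013, 10676 and 8733 CPM. Every combination library lay above every isotype library, with replicates 4 and 5 highest, and the log2 fold change was 2.16 ± 0.51 (SE), adjusted p = 0.00211 by edgeR. Col1a2 (chr6:4504814-4541544, plus strand), the other collagen I chain, had 825, 841, 551, 1033 and 1026 CPM in isotype libraries and 2514, 3057, 1814, 6622 and 5359 CPM in combination libraries (2.20 ± 0.51, adjusted p = 0.0019). Col3a1 (chr1:45311538-45349706, plus strand), the single chain of collagen III, which forms thin fibres in soft tissue, had 911, 684, 503, 1444 and 1299 CPM against 2623, 2994, 1749.8, 7211 and 7075 CPM (2.19 ± 0.63, adjusted p = 0.00816). For all 3 genes the groups did not overlap, and WT isotype replicate 3 was the lowest library.

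The collagen V chains, which join collagen I fibres and set their width, rose as well: Col5a1 by 1.70, Col5a2 by 1.44 and Col5a3 by 0.88 on the log2 scale. Col5a1 ran from 88.3 to 180 CPM in isotype and from 204 to 709.8 CPM in combination libraries. The Col5a1 and Col5a2 groups did not overlap, while those of Col5a3 did. The minor fibrillar chains Col11a1, Col11a2 and Col24a1 (1.20 ± 0.53, adjusted p = 0.067) did not pass the edgeR test. Col24a1 was called by DESeq2 (0.0417) and limma voom (0.0479), in a fit of the 2 WT groups only (0.0152), and without WT combination replicate 3 (0.0488) or B-depleted combination replicate 5 (0.008). Col27a1, a fibrillar collagen of cartilage and other tissues, went the other way. It stood at 42.1, 42.9, 82.4, 84.4 and 69.4 CPM in isotype libraries and at 23.6, 40.0, 25.1, 36.5 and 38.6 CPM in combination libraries. All combination libraries lay below all isotype libraries, though replicates 1 and 2 of the isotype group were close to them (-0.96 ± 0.25, adjusted p = 0.00468). Of the 10 fibrillar genes tested, 6 rose and 1 fell.

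All 6 collagen VI genes rose, though none was called with the Y-linked covariate. Col6a1 (chr10:76708792-76726168, minus strand) had 164, 175, 107, 154 and 158 CPM in WT isotype libraries and 432, 424, 280.2, 783 and 574 CPM in WT combination libraries (1.74 ± 0.30, adjusted p = 0.000261). Col6a2, its partner chain, had 132, 150, 84.4, 119.7 and 129 CPM against 382, 386, 231, 688 and 499 CPM (1.85 ± 0.32, adjusted p = 0.000242). Col6a3 (chr1:90765923-90843971, minus strand), the largest chain of the usual collagen VI molecule, had 353, 341, 231, 269.7 and 286 CPM against 635, 802, 466, 1525 and 1088 CPM. Its log2 fold change was 1.63 ± 0.28, with an adjusted p of 0.000228, the smallest among the members. None of these 3 genes overlapped between the groups.

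The alternative collagen VI chains Col6a5 and Col6a6, which can take the place of Col6a3, were much rarer and had the largest rises. Col6a5 (chr9:105856078-105960643, minus strand) had 12.0, 1.66, 0.47, 1.78 and 2.48 CPM in isotype libraries and 42.4, 11.7, 10.2, 148 and 76.8 CPM in combination libraries (3.98 ± 0.91, adjusted p = 0.00178). Isotype replicate 1 reached the level of combination replicates 2 and 3, so the groups overlapped. Without that isotype library the change was 5.17, and without WT combination replicate 4 it was 3.28. Col6a6 had 3.75, 0.466, 0.412, 0.458 and 1.88 CPM against 14.6, 4.0, 4.59, 84.4 and 15.9 CPM (4.15 ± 1.04, adjusted p = 0.0033). Its groups did not overlap, but 4.0 CPM lay close to 3.75 CPM, and the change was 2.82 without WT combination replicate 4 and 4.92 without WT isotype replicate 1. Col6a4, the rarest, reached at most 2.09 CPM in any WT library and rose by 1.64, a call lost without WT isotype replicate 3 (adjusted p = 0.0561) or 4 (0.0587) or WT combination replicate 5 (0.0706).

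**Figure D2:**
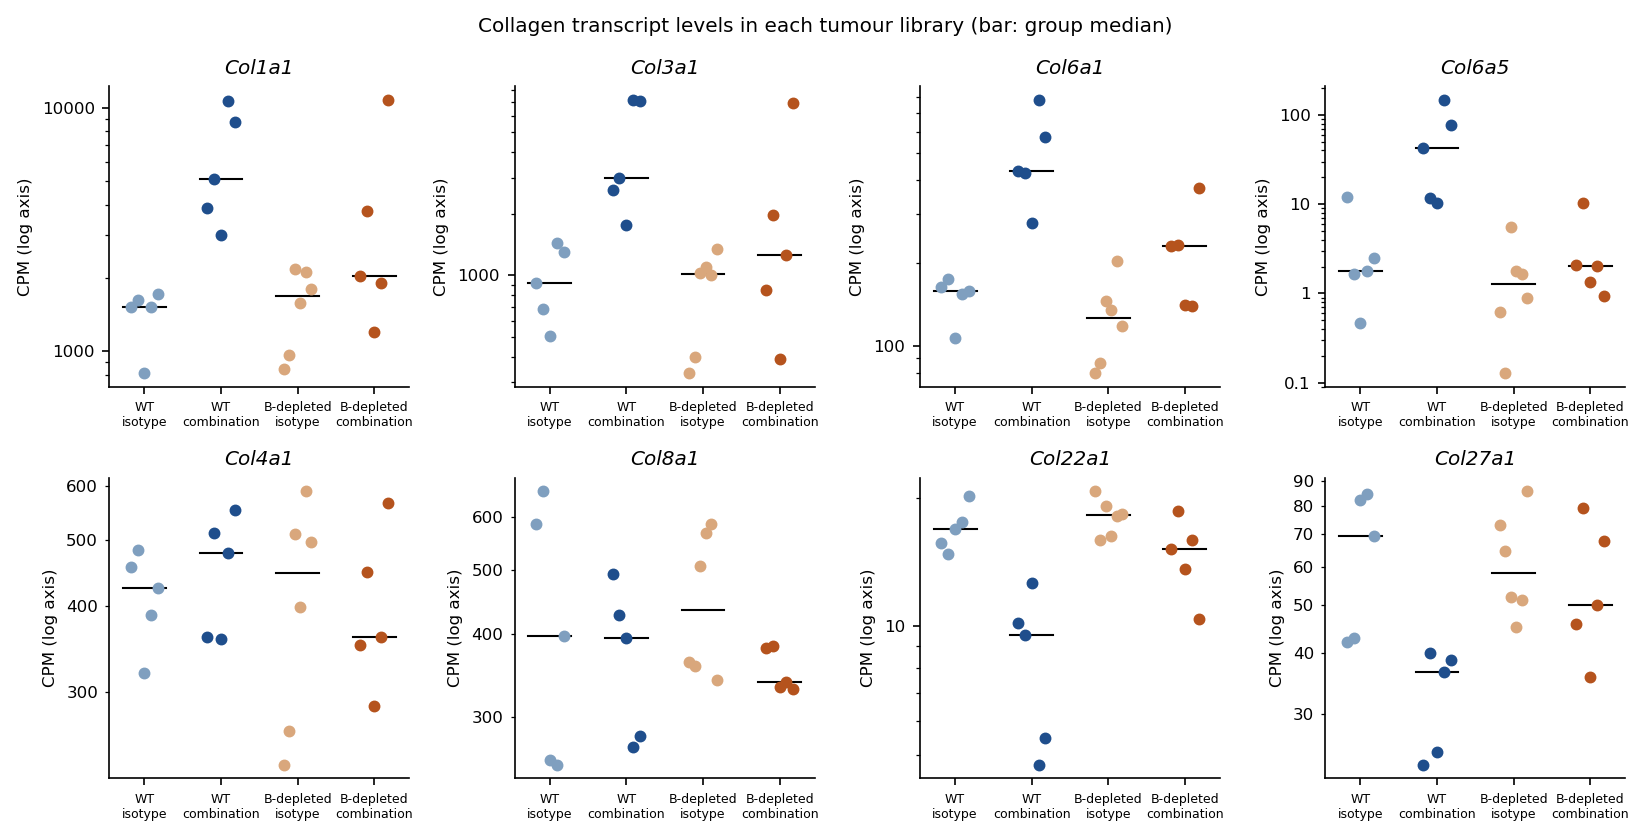
CPM on a log axis for 8 collagen genes, 1 point per library and a bar at each group's median. Col1a1, Col3a1 and Col6a1 lie higher in every WT combination library than in any WT isotype library, Col22a1 and Col27a1 lie lower, and Col4a1 and Col8a1 overlap between all groups.

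The basement membrane chains Col4a1 and Col4a2 did not pass the test. Col4a1 (chr8:11198423-11312826, minus strand) had 457, 483, 320, 389 and 426 CPM in WT isotype libraries and 361, 512, 359, 479 and 553 CPM in WT combination libraries (0.15 ± 0.23, adjusted p = 0.612). Col4a2 had 289, 303, 190, 245 and 275 CPM against 261, 336, 251, 338 and 384 CPM (0.29 ± 0.23, adjusted p = 0.287). The groups overlapped for both. With the Y-linked sum as a covariate both were lower under the combination (-1.12, adjusted p = 0.0125, and -0.96, adjusted p = 0.0102). Col4a4, a chain of the specialised collagen IV of kidney and other thin membranes, was called higher (2.02 ± 0.72, adjusted p = 0.0254). It exceeded the isotype range in combination replicates 4 and 5 only (4.39 and 3.65 CPM, isotype highest 0.994 CPM), and its call was lost without either of them or without WT isotype replicate 3 or 4 (adjusted p 0.0623 to 0.0968), with limma voom (0.0529) and with no filter (0.0562).

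Fibril-associated collagens, which lie on the surface of fibres, were mixed: of 7 tested, 2 rose and 2 fell. Col14a1 had 136, 107, 73.1, 150.1 and 136 CPM in WT isotype libraries and 387, 175, 166, 564 and 445 CPM in WT combination libraries (1.55 ± 0.39, adjusted p = 0.00342). Its groups did not overlap. Col16a1 rose by 1.52 (adjusted p = 0.0145) without overlap, a call lost when the filter on low counts was left out (0.0507). Col12a1, the most abundant of this class per kilobase, had 334, 404, 241, 486 and 528 CPM against 316, 531, 208, 295 and 887 CPM (0.19 ± 0.48, adjusted p = 0.757). Its combination libraries held both the lowest and the highest values of the 2 groups, and with the Y-linked covariate it was lower (-2.28, adjusted p = 0.0438).

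Col22a1, a collagen of tissue junctions such as that of muscle and tendon, fell. It had 15.7, 14.8, 16.9, 17.5 and 20.2 CPM in isotype libraries and 10.2, 9.52, 12.6, 4.75 and 5.47 CPM in combination libraries, with no overlap (-0.98 ± 0.20, adjusted p = 0.000893). The values were lowest in combination replicates 4 and 5, the libraries with the most collagen I. Col9a1, a cartilage collagen, had 1.88, 1.53, 9.64, 6.13 and 3.36 CPM against 1.24, 0.952, 1.7, 0.356 and 0.13 CPM (-2.35 ± 0.66, adjusted p = 0.00695), with an overlap at the values 1.53 and 1.7.

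Among the short-chain collagens, Col10a1 (chr10:34389981-34397085, plus strand), known from the growth-plate cartilage, had the largest fall. It was at 4.53, 4.86, 2.65, 3.89 and 4.52 CPM in WT isotype libraries and at 0.169, 0.698, 0.189, 0.593 and 0 CPM in WT combination libraries (-3.58 ± 0.66, adjusted p = 0.000395). Every isotype library lay above every combination library. Summed levels of 7 cartilage genes were 3.86 to 6.76 CPM and 3.05 to 6.32 CPM in the same groups, with the cartilage gene Cnmd at 0 in all 21 libraries. Of the 2 cartilage genes tested, Acan, the main cartilage proteoglycan, was lower, at 1.26 to 2.7 CPM with isotype and 0.377 to 0.949 CPM with the combination (-1.55 ± 0.40, adjusted p = 0.00411), without overlap. Its part in the result was not tested. Col8a1 had 587, 657, 258, 254 and 397 CPM against 493, 427, 395, 270.4 and 281 CPM (-0.18 ± 0.24, adjusted p = 0.533), and its groups overlapped fully.

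The remaining classes had no call in WT tumours by edgeR, with 2 of their 7 tested genes at an unadjusted p under 0.05. The multiplexin Col15a1, a basement membrane zone collagen, had 173, 203, 62.3, 72.1 and 111 CPM against 156.8, 188.6, 154.5, 294.3 and 219.7 CPM (0.73 ± 0.32, adjusted p = 0.0657). It was called by DESeq2 (0.0484) and limma voom (0.0374), and by edgeR without WT isotype replicate 1 (0.0422) or 2 (0.023) or B-depleted isotype replicate 1 (0.047). Col18a1, the source of endostatin, had a log2 fold change of -0.02. The anchoring-fibril gene Col7a1, which ties epithelium to the matrix below, had 4.42, 5.52, 5.12, 4.24 and 6.84 CPM against 3.04, 10.5, 3.9, 3.44 and 11.2 CPM (0.31 ± 0.43, adjusted p = 0.558). Its combination libraries fell on both sides of the isotype range. Col28a1 had 7.56, 5.65, 1.41, 3.38 and 4.8 CPM against 2.36, 3.62, 1.95, 4.21 and 5.47 CPM (-0.35 ± 0.43, adjusted p = 0.52). The transmembrane collagen Col23a1 had 3.37, 3.46, 2.06, 2.75 and 3.03 CPM against 4.27, 6.22, 2.7, 8.78 and 13.8 CPM. It was above all isotype libraries in 4 of 5 combination libraries (1.31 ± 0.63, adjusted p = 0.0879) and passed without B-depleted combination replicate 5 (0.0139) or with only the 2 WT groups in the fit (0.018). In all, 15 members did not overlap between the WT groups, 12 of them higher and 3 lower under the combination, while 29.3% of all tested genes did not overlap. One of the 12, the short-chain gene Col8a2, did not pass the test (1.14 ± 0.61, adjusted p = 0.128), except with only the 2 WT groups in the fit (0.00663).

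**Figure D3:**
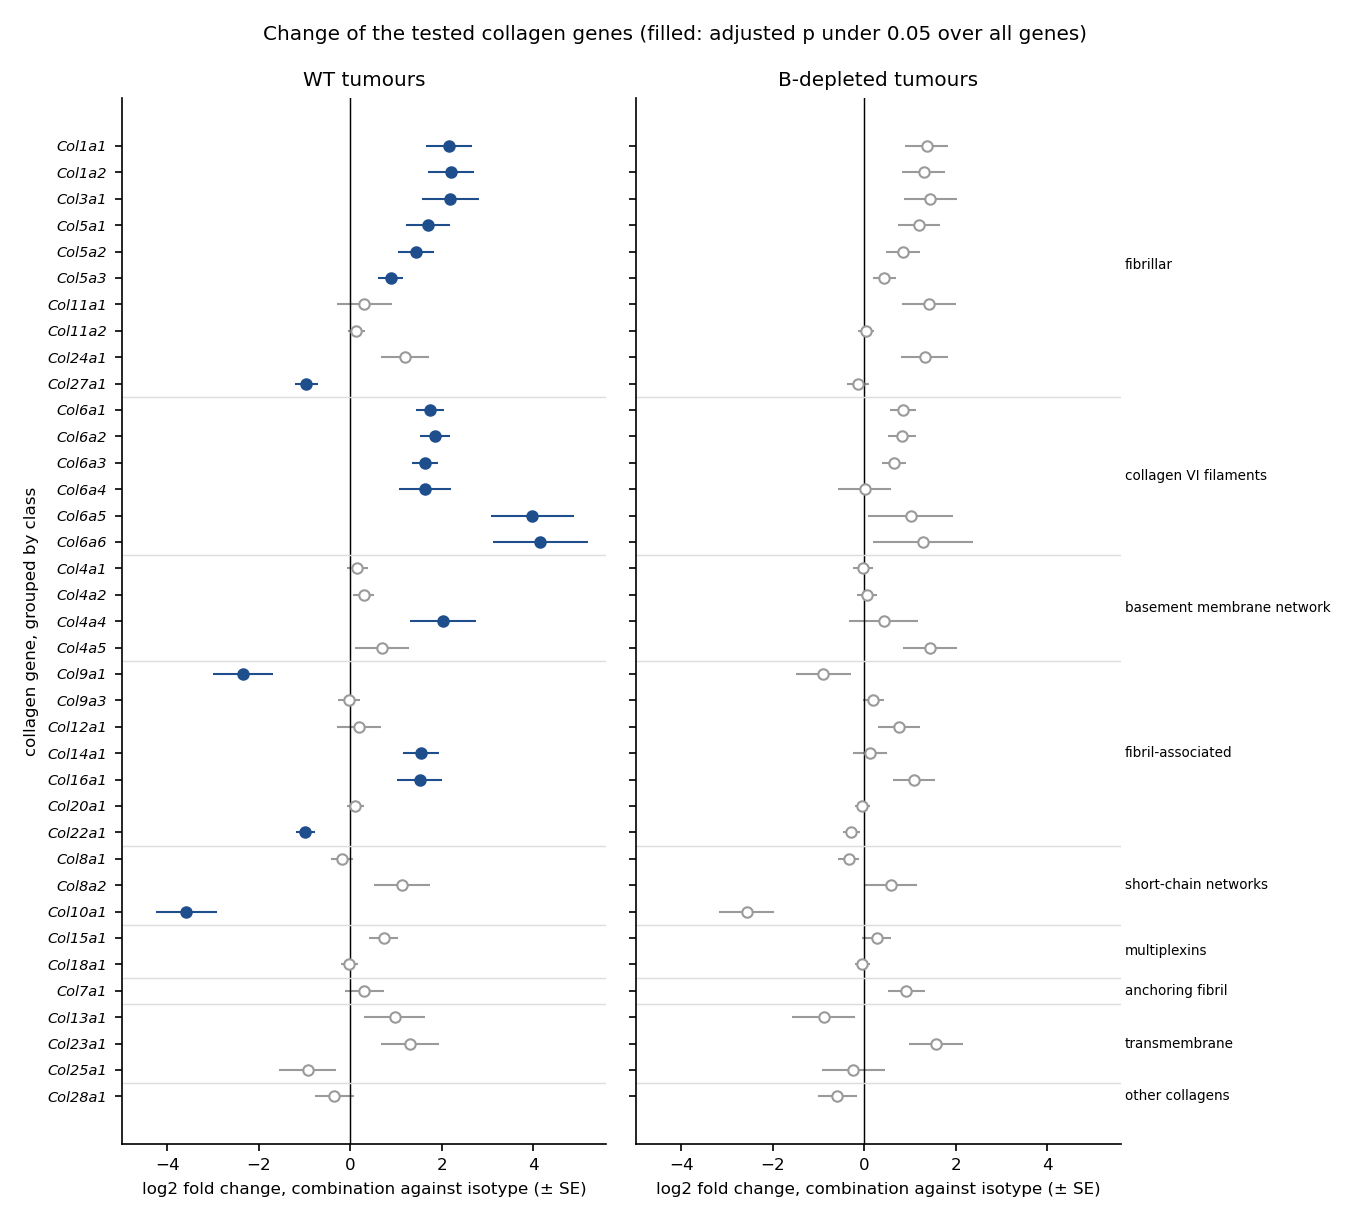
Log2 fold change (horizontal axis, ± SE) of the 37 tested collagens, combination against isotype, in WT tumours (left) and B-depleted tumours (right), grouped by class, with filled points for adjusted p under 0.05. In WT tumours 19 points are filled, among them all 6 of collagen VI, and in B-depleted tumours none is.

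In B-depleted tumours, no collagen passed the test for the combination against isotype with edgeR. Of all genes, 0.341% did, 0.304% higher and 0.0367% lower. DESeq2 called 1 member, Col10a1. The unadjusted p was under 0.05 for 15 of the 37 tested members (40.5%), beside 14.3% of all genes. Their median log2 fold change was 0.44, beside 0.02 over all genes. Of the 37 tested members, 0 separated the 2 groups, and 2.01% of all genes did. With 37 members, 0 lies close to that share.

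Col1a1 in the B-depleted isotype libraries ran from 842 to 2175 CPM with a median of 1688 CPM, and the 5 B-depleted combination libraries had 2030, 3774, 1198, 1906 and 10789.5 CPM. Replicates 2 and 5 lay above all isotype libraries and replicate 3 was low (1.37 ± 0.47, adjusted p = 0.194). Without replicate 5 the change was 0.49 (adjusted p = 0.74). Col1a2 ran from 394 to 1275 CPM, against 1115, 2029, 633, 1096 and 5610.1 CPM, and Col3a1 from 332 to 1346 CPM, against 846, 1977, 389, 1254 and 6918 CPM. Their changes were 1.30 ± 0.47 and 1.44 ± 0.58 with replicate 5, and 0.46 and 0.36 without it.

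The main collagen VI chains moved less when that library was left out. Col6a1 ran from 79.6 to 203 CPM, with a median of 127 CPM, in B-depleted isotype libraries and had 231, 233, 141, 139.8 and 375 CPM in the combination libraries (0.84 ± 0.28, adjusted p = 0.187). Col6a2 had 59.5 to 175 CPM against 198, 208, 118, 122 and 305 CPM (0.82 ± 0.30), and Col6a3 209.7 to 429 CPM against 464, 470, 304, 387 and 684 CPM (0.65 ± 0.26). For each of the 3, replicates 1, 2 and 5 lay above all isotype libraries, and the change without replicate 5 was 0.54, 0.55 and 0.43. Col10a1 had the lowest adjusted p of the members. It ran from 1.38 to 9.39 CPM with isotype and had 0.315, 2.23, 0.893, 0.162 and 0.286 CPM with the combination (-2.57 ± 0.60, adjusted p = 0.0655), and the change without replicate 5 was -2.35 (0.175). Only replicate 2 overlapped the isotype range, and the gene passed without that library (-3.45, 0.0311) or without B-depleted isotype replicate 5 (0.0491).

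The levels of Col4a1 in B-depleted tumours were 235 to 589 CPM with isotype and 351, 449, 286, 361 and 566 CPM with the combination. Those of Col8a1 were 341 to 587 CPM and 381, 383, 333, 339 and 330 CPM. Neither gene left the range of the isotype libraries except for Col8a1 in replicates 3, 4 and 5, just below it. Col12a1 (159 to 489 CPM against 301, 444, 190.4, 334 and 1374 CPM), Col23a1 (1.5 to 4.51 CPM against 2.84, 5.7, 1.41, 5.28 and 31.8 CPM) and Col7a1 (3.32 to 7.3 CPM against 5.46, 7.7, 3.42, 8.45 and 21.1 CPM) each had its highest value in replicate 5. Col15a1 had 61.2 to 184 CPM against 159.6, 148, 103, 118 and 207 CPM, and Col28a1 1.69 to 7.24 CPM against 3.57, 3.93, 1.49, 2.76 and 0.857 CPM, with overlap for both. Of the genes that fell in WT tumours, Col22a1 had 15.9 to 20.7 CPM against 15.2, 18.6, 13.6, 15.9 and 10.4 CPM, and Col27a1 45.1 to 85.7 CPM against 45.8, 79.0, 35.6, 50.1 and 67.6 CPM. Col9a1 had 2.84 to 8.97 CPM against 1.58, 3.24, 3.42, 4.79 and 0.143 CPM, and the groups overlapped for all 3.

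Depletion of B cells without the combination left no call. Between the 2 isotype groups, 0 members were called by edgeR, by DESeq2 and by limma voom, 0 had an unadjusted p under 0.05 (2.95% of all genes did), and 0.0% of all genes were called by edgeR. The member median was -0.01, the same as over all genes. Within the B-depleted isotype group, replicates 1 and 2 had 842 and 967 CPM of Col1a1, and the other 4 libraries had 1579 to 2175 CPM. The 2 isotype groups overlapped for every tested member, and 0.462% of all genes did not overlap.

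Under the combination, B-depleted tumours had less collagen VI transcript than WT tumours. Of the 37 tested members, 6 were lower (Col6a1, Col6a2, Col6a3, Col6a5, Col6a6 and Col14a1) and 2 higher (Col22a1 and Col27a1), while 29.1% of all genes were called, 15.5% higher and 13.5% lower. The member median was -0.28, beside 0.00 over all genes. Of the 37 tested members, 0 separated the groups completely, and 10.5% of all genes did. With the Y-linked sum as a covariate, or without the 5 libraries high in muscle genes, no member was called by edgeR. The shares of all genes called in those fits are not given here. Y-linked sums were 85.9 to 169 CPM in B-depleted and 135 to 250.5 CPM in WT combination libraries, and muscle gene sums were 0.372 to 45.7 CPM and 35.5 to 261 CPM. Their part in the result was not tested.

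Col6a1 was 280.2 to 783 CPM in the WT and 139.8 to 375 CPM in the B-depleted combination libraries, and 4 of the 5 B-depleted libraries lay below the whole WT range (-1.16 ± 0.30, adjusted p = 0.0125). Col6a2 (-1.21 ± 0.31, adjusted p = 0.0128) and Col6a3 (-0.98 ± 0.27, adjusted p = 0.0169) were lower as well, the call of Col6a3 being lost in a fit of the 2 combination groups only (0.0535). Without B-depleted combination replicate 5 the 3 changes were -1.46, -1.47 and -1.19, all called. Col6a4 did not pass with edgeR over all libraries (-1.51, adjusted p = 0.0578), though 4 of its 5 B-depleted libraries lay below the WT range. It was called without B-depleted combination replicate 5 (-2.74, 0.00304) or WT combination replicate 1 (-1.70, 0.0382), by DESeq2 (0.0446) and by limma voom (0.0206). Col6a5 had 2.1, 10.3, 1.34, 2.03 and 0.928 CPM in B-depleted combination libraries, against 10.2 to 148 CPM in WT (-4.13 ± 0.93, adjusted p = 0.00822). Replicate 2 alone reached the WT range, and replicate 5, the highest for collagen I, was the lowest. The change was -3.89 without replicate 5, -5.19 without replicate 2 and -3.42 without WT combination replicate 4, each called. Col6a6 had 0.735, 6.7, 0.0744, 1.3 and 0.286 CPM against 4.0 to 84.4 CPM (-3.78 ± 1.03, adjusted p = 0.0156). Its change was -3.50 without B-depleted combination replicate 5, -5.38 without replicate 2 of that group and -2.44 without WT combination replicate 4. Col14a1 had 97.1, 177, 52.9, 126 and 211 CPM against 166 to 564 CPM (-1.39 ± 0.39, adjusted p = 0.0172), and its change without B-depleted combination replicate 5 was -1.65.

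Col22a1 had 15.2, 18.6, 13.6, 15.9 and 10.4 CPM in B-depleted combination libraries, and 4 of the 5 lay above all WT combination libraries (0.77 ± 0.20, adjusted p = 0.0137). The change was 0.86 without replicate 5, and the call was lost in a fit of the 2 combination groups only (0.76, 0.0567). Col27a1 had 45.8, 79.0, 35.6, 50.1 and 67.6 CPM, with 4 of 5 above the WT range (0.75 ± 0.25, adjusted p = 0.0343). The Col27a1 call was lost in 7 of 21 fits that left out 1 library, among them B-depleted combination replicates 2 (0.0909) and 5 (0.65, 0.0587), and with no filter (0.0733). Without WT combination replicate 4, 4 members were called (Col6a1, Col6a2, Col6a5 and Col22a1), and Col14a1 (0.0607), Col6a3 (0.0685) and Col6a6 (0.0846) were lost. Col6a3 was also lost without WT combination replicate 5 (0.0503).

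The fibrillar chains turned on 1 library in this comparison. Col1a1 changed by -0.66 ± 0.49 (adjusted p = 0.307), Col1a2 by -0.87 ± 0.49 (0.178) and Col3a1 by -0.91 ± 0.61 (0.259). Without B-depleted combination replicate 5 these were -1.53 (0.00733), -1.70 (0.00553) and -1.99 (0.00873), and 17 members were called, 14 lower and 3 higher. Without that library and B-depleted isotype replicates 3 and 5, the libraries of that isotype group highest in Igkc, 18 members were called, 15 lower and 3 higher, and 7 of the 8 above were among them in either case. The shares of all genes called in those fits are not given here, so the larger counts cannot be read as particular to collagens.

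The difference between the 2 responses was tested directly as an interaction. No member was called by edgeR, DESeq2 or limma voom, 0.0262% of all genes were called by edgeR (0.0157% higher and 0.0105% lower), and 7 of the 37 members (18.9%) had an unadjusted p under 0.05, beside 25.6% of all genes. The members with the lowest adjusted p were Col14a1 (-1.42 ± 0.54, 0.129), Col6a3 (-0.98 ± 0.38, 0.133), Col22a1 (0.70 ± 0.28, 0.141), Col6a2 (-1.04 ± 0.43, 0.151) and Col27a1 (0.82 ± 0.35, 0.156), where a negative value is a smaller rise in B-depleted tumours. Without B-depleted combination replicate 5 these were -1.68, -1.19, 0.79, -1.30 and 0.72, none called. Their adjusted p by edgeR were then 0.0565, 0.0515, 0.0692, 0.0547 and 0.16, in the same order. For Col1a1 it was -0.79 ± 0.68 (0.459), and -1.66 (0.0536) without B-depleted combination replicate 5. The calls in WT and their absence in B-depleted tumours are thus a difference that was tested and did not pass with all libraries in the fit. Col22a1 passed without WT combination replicate 3 (0.0386), Col27a1 without WT isotype replicates 1 and 2 (0.0451), and Col6a4 without B-depleted combination replicate 5.

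Ratios between chains within a library do not depend on how much of the library is collagen. Per kilobase, Col1a1 to Col1a2 was 1.32 to 1.93 in all 21 libraries, Col4a1 to Col4a2 was 1.35 to 1.7 and Col6a1 to Col6a2 was 1.2 to 1.52. The highest of these ratios was 1.46, 1.26 and 1.27 times the lowest, while the level of Col1a1 itself ran from 812 to 10789.5 CPM. Col4a1 to Col4a2 was 1.51 to 1.64 in WT isotype and 1.35 to 1.49 in WT combination libraries, a small shift without overlap. Col6a3 to Col6a1 varied more, from 0.595 to 1.2.

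Ratios between classes differed. Col1a1 to Col4a1 was 2.83 to 4.48 in WT isotype, 9.37 to 24.9 in WT combination, 4.0 to 4.75 in B-depleted isotype and 4.68 to 21.3 in B-depleted combination libraries. The WT groups did not overlap, and 1 B-depleted combination library, replicate 3, lay inside the isotype range of its background. Col6a1 to Col4a1 was 0.54 to 0.637, 1.26 to 2.64, 0.384 to 0.556 and 0.625 to 1.07 in the same order, without overlap between isotype and combination in either background. Col1a1, Col1a2 and Col3a1 together held 46.7 to 58.1% of the collagen counts in WT isotype, 66.2 to 76.9% in WT combination, 44.9 to 56.3% in B-depleted isotype and 49.6 to 77.5% in B-depleted combination libraries. These ratios were not tested.

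**Figure D4:**
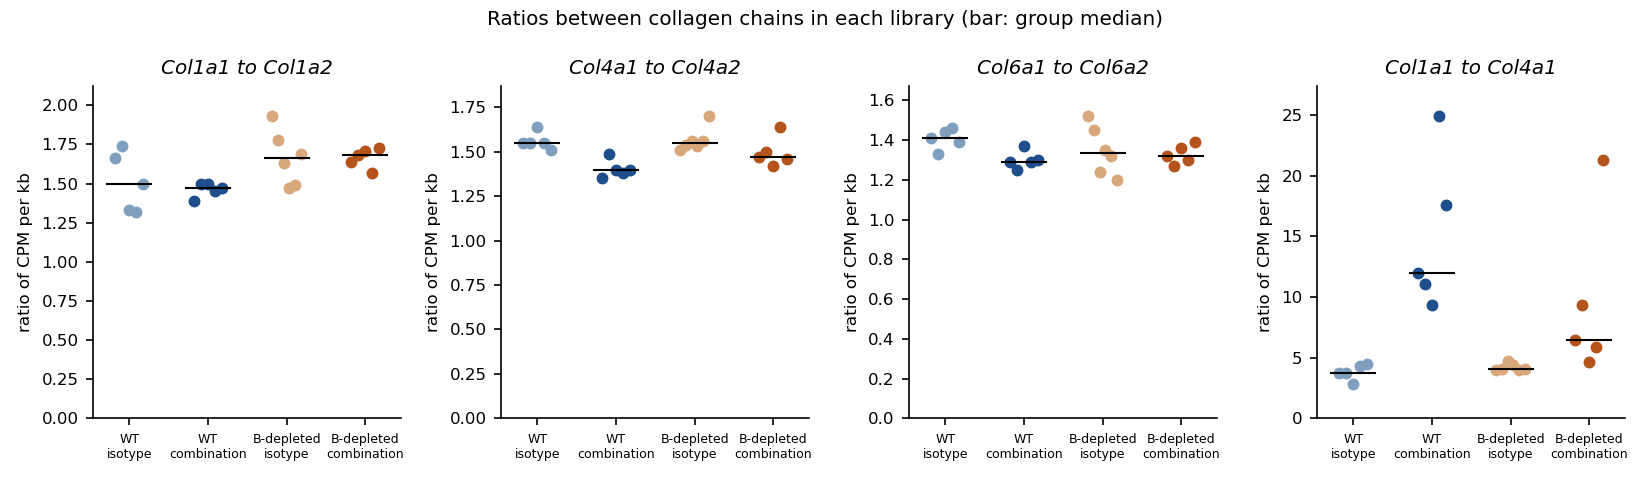
Ratio of CPM per kb of coding transcript between pairs of collagen chains (vertical axes from 0), 1 point per library and a bar at each group's median. The ratios of partner chains of collagens I, IV and VI stay between 1.2 and 1.93 in all libraries, while Col1a1 to Col4a1 is 2.83 to 4.48 in WT isotype and 9.37 to 24.9 in WT combination libraries.

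Levels were also set against the Y-linked sum in the same library. Col6a1 per CPM of Y-linked genes was 2.01 to 2.25 in WT isotype and 2.06 to 3.15 in WT combination libraries, and these ranges overlapped. Of the main fibrillar chains, Col1a1 did not overlap (17.1 to 21.8 and 22.4 to 43.0), while Col1a2 (10.6 to 13.6 and 13.5 to 26.6) and Col3a1 (medians 11.7 and 16.8) did. Col4a1 was 5.14 to 6.73 and 1.93 to 2.66, and Col8a1 3.35 to 8.29 and 1.09 to 3.16, both lower with the combination. Col27a1 was 0.539 to 1.73 and 0.147 to 0.194. In B-depleted tumours the same ratios for Col1a1 were 16.9 to 23.3 with isotype and 13.9 to 63.9 with the combination, for Col6a1 1.33 to 1.72 with isotype and 1.37 to 2.3 with the combination, and for Col4a1 4.6 to 6.43 and 3.32 to 4.13.

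**Figure D5:**
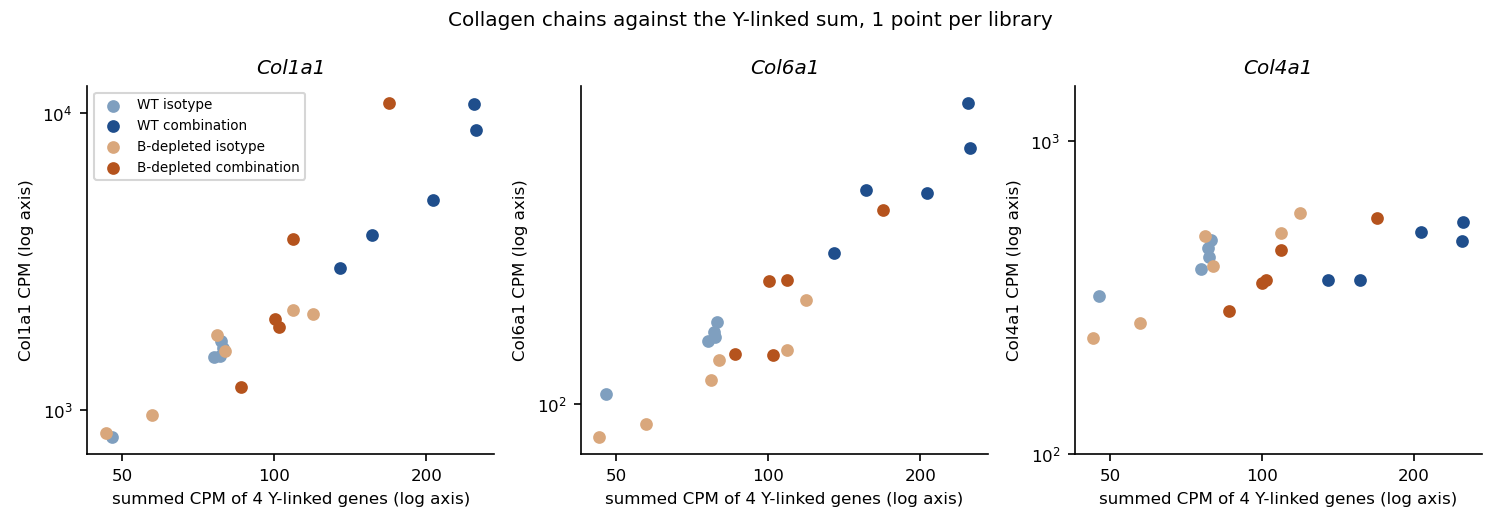
CPM of Col1a1, Col6a1 and Col4a1 (vertical, log axis) against the summed CPM of 4 Y-linked genes (horizontal, log axis), 1 point per library, coloured by group. All 5 WT combination libraries lie above all WT isotype libraries on both axes for Col1a1 and Col6a1, B-depleted combination replicate 5 is high for Col1a1 (10789.5 CPM), and Col4a1 overlaps between the WT groups (320 to 483 CPM and 359 to 553 CPM).

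Genes that make, process and bind collagen were counted in the same way, beside the 50.0% of all genes called in WT tumours. Of 19 synthesis and folding genes, 9 rose and 3 fell there. Plod1 and Plod2, lysyl hydroxylases, changed by 0.91 ± 0.24 and 1.33 ± 0.32, and P3h3, of the prolyl 3-hydroxylase family, by 1.23 ± 0.35. P4hb, a subunit of prolyl 4-hydroxylase and a general folding enzyme, fell (-0.55 ± 0.13, adjusted p = 0.00237). The summed level of the list was 1492 to 1793 CPM with isotype and 1492 to 1718 CPM with the combination, which overlapped.

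Of 13 tested genes of procollagen processing and crosslinking, 6 rose and 1 fell. Adamts2, Adamts3 and Adamts14, proteases that trim the amino end of procollagens, changed by 1.39 ± 0.34, 2.00 ± 0.60 and 1.06 ± 0.20, and the crosslinking enzyme gene Loxl4 by -0.45 ± 0.13. Adamts3 was rare, at 0.115 to 0.466 CPM with isotype and 0.619 to 1.5 CPM with the combination. Of 11 receptor and uptake genes, 5 rose and 3 fell. Lair1, an inhibitory collagen receptor of immune cells, rose by 1.08 ± 0.22, and Gp6, the platelet collagen receptor, by 2.24 ± 0.49. The Gp6 change rests on few reads, at 0.0573 to 0.466 CPM with isotype and 1.07 to 1.71 CPM with the combination. Itga2, a collagen-binding integrin chain, stood at 143 to 240.3 CPM with isotype and 36.9 to 100.3 CPM with the combination (-1.38 ± 0.24, adjusted p = 0.000251), and Adgrg1, a receptor for collagen III, changed by -0.60 ± 0.13.

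The degradation list held 9 genes, among them the protease inhibitors Timp1, Timp2 and Timp3. Of the 9, 4 rose and none fell by edgeR in WT tumours, with 5 at an unadjusted p under 0.05. The 4 were proteases, and no inhibitor was called. The proteases Ctsk, Mmp2 and Mmp13 changed by 1.95 ± 0.50, 2.09 ± 0.63 and 0.80 ± 0.21. Mmp9 changed by 1.03 ± 0.42 (adjusted p = 0.0478), a call that held in 6 of 21 fits without 1 library. Of 20 other matrix genes, 8 rose and 3 fell. Postn, a matricellular protein of activated fibroblasts, and Lum, a small proteoglycan on collagen fibres, rose by 1.97 ± 0.43 and 2.84 ± 0.82, the latter being 2.02 without WT combination replicate 4. Fn1, fibronectin, the most abundant gene of that list, was at 6836 to 8272 CPM with isotype and 2726 to 4237 CPM with the combination (-1.09 ± 0.13, adjusted p = 2.04e-05), and the laminin chain gene Lama5 changed by -0.61 ± 0.20.

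In B-depleted tumours, none of the genes of these 5 lists passed for the combination with edgeR, and 2, 1, 3, 2 and 3 of them, in the order of the lists, had an unadjusted p under 0.05 (14.3% of all genes did). Fn1 came nearest among the most abundant, at 5252 to 7664 CPM with isotype and 3907 to 5303 CPM with the combination (adjusted p = 0.0673). Between the combination groups, where 29.1% of all genes were called, the lists had 0, 1, 2, 0 and 1 genes higher and 2, 1, 1, 0 and 4 lower in B-depleted tumours. P3h2, a prolyl 3-hydroxylase, was lower (-0.90 ± 0.23, adjusted p = 0.0125), while Loxl4 (0.55 ± 0.13, adjusted p = 0.00889), Itga2 (0.91 ± 0.24, 0.0127) and Adgrg1 (0.51 ± 0.14, 0.0134) were higher, and these 4 calls held in all 21 fits without 1 library, though that of Adgrg1 was lost with only the 2 combination groups in the fit (0.0529). The calls of Colgalt1, Adamts2, Lair1, Tnxb, Fn1, Lama2 and Lum were each lost in 4 or more of those fits, in each case also without WT combination replicate 4. In the interaction no gene of the 5 lists was called by edgeR, with 3, 1, 2, 0 and 2 at an unadjusted p under 0.05 (25.6% of all genes), and between the isotype groups none was called, with 1, 0, 0, 0 and 0.

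Markers of cells that could hold these transcripts moved too. Of 14 tested fibroblast and stellate cell markers, 6 rose in WT tumours and none fell by edgeR. Of all genes, 25.0% were called higher and 25.0% lower in that comparison. The other 8 markers did not pass, among them Rgs5, the most abundant of the list (169 to 342 CPM with isotype, 189 to 261 CPM with the combination). The ranges of Cspg4 (22.6 to 53.4 and 28.8 to 44.5 CPM) and Mcam (31.1 to 92.9 and 50.3 to 69.7 CPM) overlapped as well. Thy1, a surface protein of fibroblasts but not of them alone, as T cells of the mouse carry it too, stood at 44.9 to 87.5 CPM against 116 to 175 CPM (1.21 ± 0.23, adjusted p = 0.000432). Fap, fibroblast activation protein, rose by 1.39 ± 0.35. The summed level was 468 to 941 CPM with isotype and 741 to 1338 CPM with the combination, which overlapped, and Lrat, which defines resting stellate cells, was at 0 in 17 libraries. Between the combination groups, 5 of these markers were lower in B-depleted tumours. In that comparison 13.5% of all genes were called lower and 15.5% higher. Endothelial markers (7 of 12 higher, 0 lower) and macrophage markers (9 of 9 higher) rose in WT tumours, and 7 of 9 tested hepatocyte and hepatoma markers fell, from a summed 1702 to 5872 CPM to 537 to 1916 CPM. Between the combination groups, 8 of the 9 macrophage markers were lower and 7 of the hepatocyte and hepatoma markers higher in B-depleted tumours. In the same comparison 2 of 4 tested adipocyte markers were higher, and of 6 tested Schwann cell markers 3 were lower and 1 higher. B-depleted combination replicate 4 held a summed 359 CPM of adipocyte markers, against 12.1 to 19.1 CPM in the rest of its group. These lists were not used to adjust the collagen values, and their part in the result was not tested.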

How the data were processed

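The authors deposited 1 table of read counts per gene for 21 libraries. Reads were trimmed with cutadapt 2.4 and aligned with STAR 2.7.2a to GRCm38, per the submitters' processing notes, and libraries were made with a stranded mRNA kit, per the labels' protocols. For the counting step, the tool, annotation and strand setting were not given in the sources used here.

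Deposited columns were matched to libraries by their names, and gene identifiers to symbols of the GRCm38 annotation (55227 of 55487; the other 260 held 0.0183% of counts and stayed in the fit). Genes were filtered on low counts with edgeR 4.0.16 (19061 kept), scaled by TMM (factors 0.953 to 1.029) and fitted in 1 model of the 4 groups over all 21 libraries with a robust quasi-likelihood test. P-values were Benjamini-Hochberg adjusted over all genes tested, with a threshold of 0.05. CPM is a count scaled by the library's total. At the lowest depth 1 CPM was 9.52 counts, so members under 1 CPM rest on few reads. Alternatives were DESeq2 1.42.0, limma voom 3.58.1, DESeq2 size factors, no filter, only the groups compared, thinning to the shallowest library, a Y-linked covariate, replicate numbers as a block, and leaving out each library. 3 sets of libraries were also left out, chosen after seeing the data. The fit was tested on simulated data.

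Values are given in every WT library for the main chains of collagens I, III, IV and VI, for the member of each other class with the highest level per length, and for the 3 largest called rises and falls in each comparison with a mean of at least 1 CPM. Apart from Col4a2, these genes are also given in every B-depleted combination library. For the B-depleted isotype libraries, ranges are given for most of them. Up to 4 called genes of smallest p are named in each pathway list. The members and lists were chosen with earlier results of these data known. Promoter windows were taken from RefSeq tables of GRCm38.p6, which held 35 of the 44 members.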

Additional observations from a re-analysis of the deposited data

Results flagged for a closer look

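Of 124 groups of values examined, 18 (14.5%) held 1 library far from the others of its group. A chance rate of about 1 in 20 holds only for independent groups that were not chosen for their values. Here class sums reuse genes that were also examined by themselves, and some genes were named for their large changes. The 14.5% can therefore not be compared with that rate. The library labelled B-depleted combination replicate 5 accounted for 10 of the 18. It had 10789.5 CPM of Col1a1 (next highest of its group 3774), 5610.1 CPM of Col1a2 (2029), 6918 CPM of Col3a1 (1977), 1374 CPM of Col12a1 (444), 31.8 CPM of Col23a1 (5.7) and 21.1 CPM of Col7a1 (8.45), the last being also the whole anchoring-fibril class. Its sums were 30105 CPM over all collagens (11704), 25289 CPM over the fibrillar class (8573) and 33.7 CPM over the transmembrane class (6.86).

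WT isotype replicate 3 was low, with 812 CPM of Col1a1 (next lowest 1511) and 3982 CPM over all collagens (6672). The rare collagen VI chains had single high libraries in several groups. Col6a5 was 12.0 CPM in WT isotype replicate 1 (next 2.48), 5.59 CPM in B-depleted isotype replicate 3 (1.78) and 10.3 CPM in B-depleted combination replicate 2 (2.1). Col6a6 was 84.4 CPM in WT combination replicate 4 (15.9) and 6.7 CPM in B-depleted combination replicate 2 (1.3), so both rare chains were highest in the same library of that group. Col9a1 was 8.97 CPM in B-depleted isotype replicate 6 (5.13).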

How the results depend on the processing

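With the summed Y-linked genes as a covariate, 3 collagens were called in the WT comparison and 0 between the combination groups, and changes that turned direction in WT tumours were Col1a1 -0.47, Col1a2 -0.50, Col3a1 -1.04, Col5a1 -0.86, Col5a2 -0.65, Col5a3 -0.40, Col24a1 -1.28, Col4a1 -1.12, Col4a2 -0.96, Col4a4 -1.18, Col6a4 -0.77, Col7a1 -0.96, Col8a2 -1.07, Col12a1 -2.28, Col14a1 -0.31, Col15a1 -0.86, Col16a1 -1.02, Col23a1 -1.97, Adamts2 -0.48, Adamts3 -0.50, Ctsk -0.72, Fap -0.63, Lum -1.29, Mmp2 -1.12, P3h3 -0.59, Plod1 -0.37, Plod2 -0.13 and Postn -0.16. Under it Col3a1 was -0.11 in the B-depleted comparison, Col1a1 0.52, Col1a2 0.34 and Col3a1 0.47 between the combination groups, and Col1a1 0.63, Col6a1 0.14 and Col6a2 0.12 in the interaction. Without the 5 libraries over 100 CPM of muscle genes, 1 collagen was called in WT tumours and 0 between the combination groups. Col12a1 was then -0.72, Col4a1 -0.26, Col4a2 -0.09 and Col7a1 -0.57 in WT tumours, Col1a1 0.21 and Col3a1 0.09 between the combination groups, and Col1a1 0.33 in the interaction. Without WT isotype replicates 1 and 2, Col18a1 was 0.14, Col28a1 0.16 and Col8a1 0.31 in WT tumours, and 1 member was called in the interaction. Between the combination groups, 18 members were called without B-depleted isotype replicates 3 and 5 and combination replicate 5. DESeq2 called 1 member in the B-depleted comparison. Leaving out 1 library gave 17 to 21 calls in WT tumours, 0 to 1 in the B-depleted comparison (1 without B-depleted isotype replicate 5 or combination replicate 2), 0 between the isotype groups, 4 (without WT combination replicate 4) to 17 (without B-depleted combination replicate 5) between the combination groups, and 0 to 1 in the interaction. Col12a1 ran from -0.21 to 0.37 and Col18a1 from -0.10 to 0.10 in those fits. The cause of these changes was not tested, and the shares of all genes called in these fits are not given here. Of 30 pairs of libraries with the same number in the title, deviations from the group means correlated above 0.1 in 9 (median 0.0265). Of 27 pairs with the same number in the description they did in 7 (median -0.028). Pairs with unlike numbers were not examined, so these values cannot show whether the numbers pair libraries. With the title number as a replicate block, 19 members were called in WT tumours and 9 between the combination groups, and with the description number 16 and 9, with Col12a1 -0.31, Col4a1 -0.02 and Col7a1 -0.10. DESeq2, DESeq2 size factors, limma voom, no filter, thinning and fits of only the compared groups reversed no value. Of 90 values, 10 lost their call with no filter, 2 with limma voom, 1 with DESeq2 size factors and 0 with DESeq2, and 6 of 82 did with only the compared groups, while 4 gained one with DESeq2, 3 with limma voom and 3 with only the compared groups. Far more moved in 2 other settings. With the Y-linked covariate, 35 of 90 turned direction and a further 40 lost their call. Among the latter were Adamts14 (0.14) and Adgrg1 (-0.09) in WT tumours. Without the 5 libraries over 100 CPM of muscle genes, 7 turned direction and a further 57 lost their call. At these depths, changes of members under 1 CPM rest on few reads.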
